A study of Mus musculus with 2 samples.

Results

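The genes of protein kinase A (PKA) and Gnas were followed across steroid-producing cells of the mouse adrenal cortex. The 7 genes were taken by symbol from the list of 31057 measured features, and each symbol matched 1 feature. They were the regulatory subunit genes Prkar1a, Prkar1b, Prkar2a and Prkar2b, the catalytic subunit genes Prkaca and Prkacb, and Gnas. All 7 passed the filter on low counts in both statistical fits, of 11752 and 10401 genes. The samples were 2 single-cell RNA libraries of live single adrenal cells, sorted by flow cytometry, from male mice aged 15 weeks, labelled wild type with the alleles SF1-Cre and Rosa mTmG. No other genotype and no treatment was compared, so the groups set against each other are classes of cells within each library. Rosa mTmG is a reporter that switches a cell from a red to a green membrane protein once Cre has acted, and SF1-Cre directs Cre to the lineage that makes Sf1 (Nr5a1), the transcription factor of steroid-producing cells. The study used 26 adrenals in all. The labels do not say which adrenals went into which library. Differences were taken within each library, so p-values measure only how unevenly they repeat across cell sums from 2 libraries. That spread may be technical.

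PKA is the main receiver of cyclic AMP in adrenal cells. Corticotropin (ACTH) binds its receptor Mc2r, the receptor activates the stimulatory G protein alpha subunit encoded by Gnas, and adenylyl cyclases then make cyclic AMP. In the resting holoenzyme a dimer of regulatory subunits holds catalytic subunits inactive, and cyclic AMP binding releases them to phosphorylate proteins that drive cholesterol delivery and steroid synthesis. Type I holoenzymes contain RI subunits (Prkar1a, Prkar1b) and type II holoenzymes contain RII subunits (Prkar2a, Prkar2b), which bind A-kinase anchoring proteins and so are held at particular places in the cell. In people, inactivating PRKAR1A mutations and activating GNAS or PRKACA mutations cause cortisol-producing adrenal disease.

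Cortical cells were defined by their summed CPM (UMIs per 1000000 UMIs of the cell) of Star, Cyp11a1, Cyp21a1 and Hsd3b1, with fewer than 3 UMIs of 7 leukocyte genes and at least 5000 UMIs. Of 5040 and 2288 cell barcodes, 4358 in library 1 and 1593 in library 2 were used, with a median of 18630 and 16170 UMIs per cell. The libraries shared 4 barcodes. Classes were set by Cyp11b2, the aldosterone synthase of the zona glomerulosa, Cyp11b1, the glucocorticoid-producing 11β-hydroxylase of the zona fasciculata, and Aldh1a1, a gene of the inner cortex of male mice. The Aldh1a1-high class (at least 500 CPM) held 28 and 25 cells in libraries 1 and 2, and the Cyp11b1-high class (at least 1000 CPM) held 435 and 267. The Cyp11b1-intermediate class (300 to 1000 CPM) held 459 and 158 cells, and cells low in both hydroxylase genes numbered 2929 and 901. A co-expressing class, with at least 200 CPM of Cyp11b2 and at least 300 CPM of Cyp11b1, held 35 and 15 cells. The Cyp11b2-high class, with as much Cyp11b2 but under 300 CPM of Cyp11b1, held 472 and 227. The Cyp11b1-high, Cyp11b1-intermediate and low classes had under 200 CPM of Cyp11b2. In cells near 5000 UMIs these thresholds stand for few UMIs, so a cell's class depends in part on depth and counting error. Halved thresholds gave 896 and 332 Cyp11b2-high and 161 and 51 co-expressing cells. The 7 cortical marker genes together reached 15679 to 26230 CPM in every class and library. They include Star, Cyp11a1, Cyp21a1 and Hsd3b1, which selected the cells, so high values follow in part from that selection. None of the 7 members was used to set a class.

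In the GENCODE vM21 annotation of the mm10 build, Prkar1a lies at chr11:109649405-109669656 on the plus strand, Prkar1b at chr5:139017306-139150001 on the minus strand, Prkar2a at chr9:108689314-108750436 on the plus strand and Prkar2b at chr12:31958476-32061296 on the minus strand. Prkaca lies at chr8:83972993-83996443 on the plus strand and Prkacb at chr3:146729574-146812990 on the minus strand. Gnas, at chr2:174284320-174346744 on the plus strand, is an imprinted locus whose alternative first exons give Gsα, XLαs and Nesp transcripts. The annotation lists 16 coding Gnas transcripts with 9 distinct starts, and 10 of them end within 500 bases of the commonest end. Libraries of this kind count 3′ ends, so the Gnas values below do not tell these transcripts apart. The antisense gene Nespas had 6 and 2 UMIs in all cortical cells of libraries 1 and 2, against 140994 and 38797 for Gnas.

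Promoter sequences are shown for the 4 subunit genes whose levels differed between classes by the largest margins. Whether promoter sequence bears on these levels was not tested. Each line is the 250 bases before a RefSeq transcript start in GRCm38.p6, written 5′ to 3′ on the strand of the gene, from chr11:109650699-109650948 (plus) for Prkar1a, chr9:108691893-108692142 (plus) for Prkar2a, chr12:32061278-32061527 (minus) for Prkar2b and chr8:83972728-83972977 (plus) for Prkaca. Where RefSeq gives several starts, the window with the most matches is shown. Capitals mark the cyclic AMP response element TGACGTCA and its shorter core TGACG on either strand (CGTCA on the opposite one).
Prkar1a: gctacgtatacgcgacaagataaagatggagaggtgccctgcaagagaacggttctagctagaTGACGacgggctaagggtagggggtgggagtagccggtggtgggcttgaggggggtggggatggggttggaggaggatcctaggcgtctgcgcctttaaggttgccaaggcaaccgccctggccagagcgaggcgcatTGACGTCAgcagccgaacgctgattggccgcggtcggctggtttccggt
Prkar2a: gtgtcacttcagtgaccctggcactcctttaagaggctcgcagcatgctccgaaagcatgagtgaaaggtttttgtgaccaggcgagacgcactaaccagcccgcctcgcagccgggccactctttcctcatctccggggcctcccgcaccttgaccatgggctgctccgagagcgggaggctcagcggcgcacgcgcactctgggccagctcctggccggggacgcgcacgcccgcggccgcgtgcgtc
Prkar2b: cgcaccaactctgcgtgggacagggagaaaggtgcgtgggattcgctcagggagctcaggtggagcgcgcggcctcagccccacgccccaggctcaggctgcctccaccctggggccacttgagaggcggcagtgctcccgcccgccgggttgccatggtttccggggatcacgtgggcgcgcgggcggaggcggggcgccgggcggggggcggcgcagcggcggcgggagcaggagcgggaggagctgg
Prkaca: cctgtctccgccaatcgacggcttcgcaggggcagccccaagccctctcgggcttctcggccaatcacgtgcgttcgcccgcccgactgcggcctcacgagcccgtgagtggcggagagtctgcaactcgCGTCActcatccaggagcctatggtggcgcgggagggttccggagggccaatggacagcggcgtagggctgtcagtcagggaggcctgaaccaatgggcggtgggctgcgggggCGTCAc
The Prkar1a window holds the full element 49 bases before the start and a further TGACG 187 bases before it. The full element contains TGACG on both strands, so its own cores are no separate matches. The Prkaca window holds the core at 120 and 6 bases before the start, and the Prkar2a and Prkar2b windows hold neither form. Across all 32851 RefSeq promoters, 1.55% carry TGACGTCA and 17.8% carry TGACG in these 250 bases. CAAGGTCA, an element bound by Sf1, was searched on both strands as well. It is in 1.33% of all promoters and in none of the 23 windows of the 7 members, of which 1 holds the full cyclic AMP element and 9 hold TGACG. Some windows of Prkar1a and of Gnas overlap, so a site there can be counted more than once. A match of letters does not show that a factor binds there.

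Over all cortical cells, Gnas was counted at 1640 CPM in library 1 and 1505 CPM in library 2. Each UMI stands for 1 captured 3′ end, so these levels are not divided by gene length, and capture may differ between genes. Among the regulatory subunit genes, Prkar1a stood at 334 and 455 CPM, Prkar2b at 139 and 184, Prkar2a at 73.9 and 72.4, and Prkar1b, which is best known from brain, at 26.8 and 31.4. The catalytic genes Prkacb and Prkaca stood at 99.7 and 105 CPM, and at 68.8 and 68.9 CPM. Both libraries gave the order Gnas, Prkar1a, Prkar2b, Prkacb, Prkar2a, Prkaca and Prkar1b. The 40 and 27 leukocyte-marked cells left out of the classes had 175 and 147 CPM of Prkar1a and 769 and 894 CPM of Gnas, and Prkar2b had 8.91 CPM in library 1 and no UMI in library 2, where 3 UMIs would be 15.2 CPM.

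**Figure D1:**
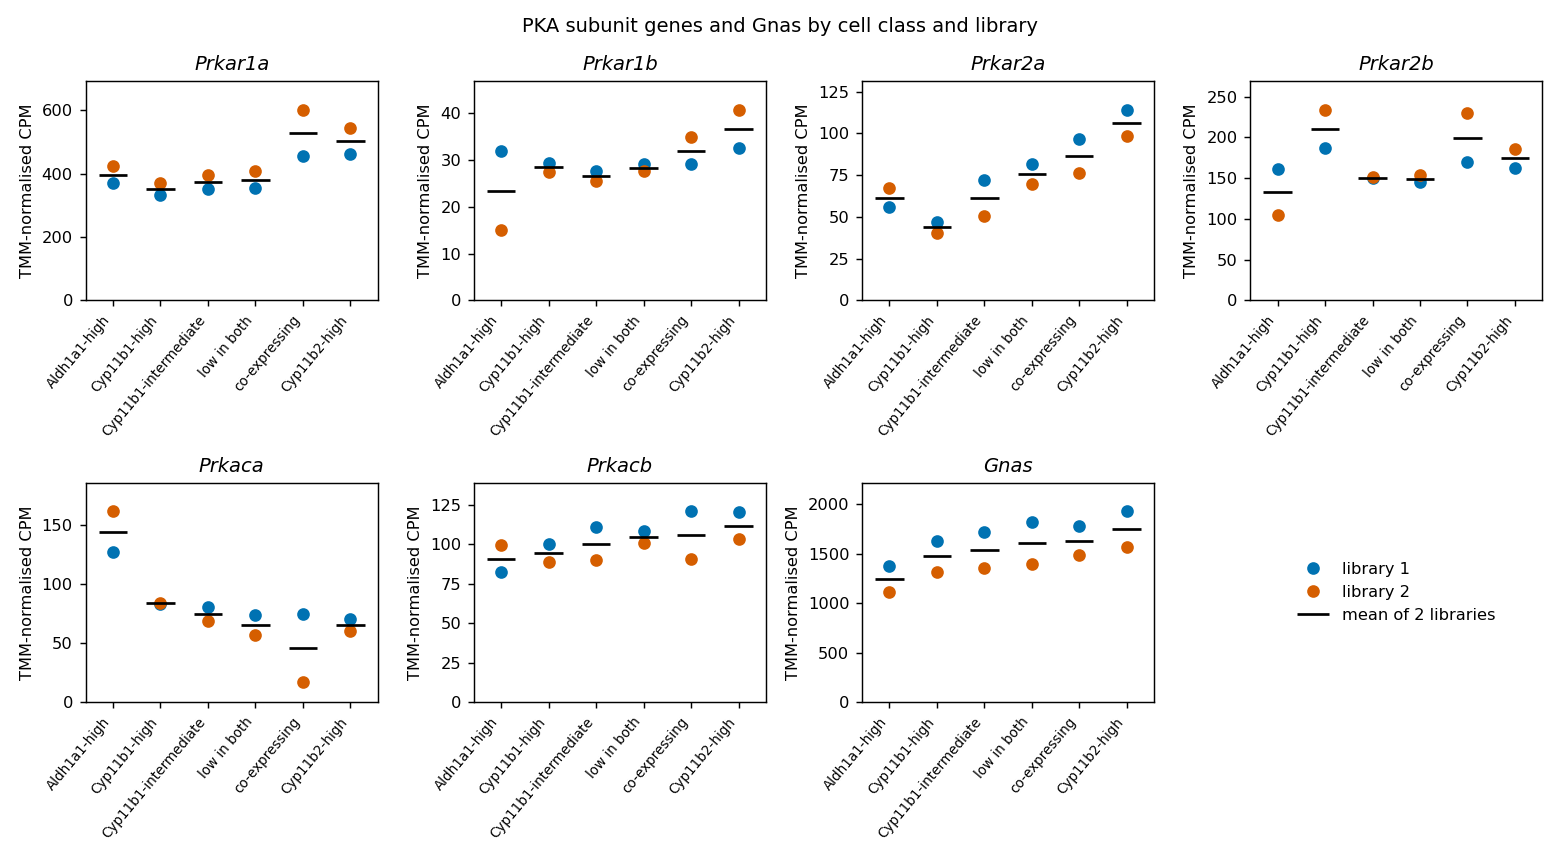
TMM-normalised CPM (UMI sums per class, scaled by trimmed mean of M values) of the 7 genes in 6 classes of cortical cells; each point is 1 library and the bar is the mean of 2 libraries. Prkar2a is lowest in Cyp11b1-high cells (47.1 and 40.3) and highest in Cyp11b2-high cells (114 and 98.7), Prkaca is highest in Aldh1a1-high cells (127 and 162), and Gnas is lowest there (1376 and 1108).

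Prkar2a, which encodes the RIIα subunit, had the largest difference of the 7 members between Cyp11b1-high and Cyp11b2-high cells. Its TMM-normalised level was 47.1 CPM in library 1 and 40.3 CPM in library 2 in Cyp11b1-high cells, against 114 and 98.7 CPM in Cyp11b2-high cells. Class levels of the members below are TMM-normalised too, unlike the CPM over all cortical cells above. All 4 values are ordered by class, with no overlap, and the log2 difference was −1.27 in library 1 and −1.29 in library 2. With 2 values per class, a lack of overlap arises easily without any difference, here and for the members below. Its share over all genes is not given here. The edgeR quasi-likelihood test on UMI sums per class and library gave a log2 difference of −1.28 ± 0.09 (SE), a fold of 0.411, with a Benjamini-Hochberg adjusted p of 3.38e-10. The remaining large classes lay between. Cells low in both hydroxylase genes had 81.6 and 69.7 CPM, and Cyp11b1-intermediate cells had 71.99 and 50.7 CPM. Of neighbouring classes in the order of Prkar2a means, only Cyp11b1-high and Cyp11b1-intermediate cells differed (log2 difference −0.53 ± 0.10, edgeR adjusted p = 0.00136). After each cell was thinned to 5000 UMIs, 21.6% and 18.4% of Cyp11b1-high cells kept a Prkar2a UMI, against 35.4% and 36.6% of Cyp11b2-high cells. Without thinning the share was 47.1% and 44.2% in Cyp11b1-high cells, at median depths of 16905 and 15719 UMIs, against 76.5% and 76.2% in Cyp11b2-high cells, at 21014.5 and 18965 UMIs. PKA subunits are used by nearly all cells, so no class served to measure the share that free RNA alone gives.

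Prkar1a, the RIα gene, was also lower in Cyp11b1-high cells. It stood at 334 and 370 CPM in Cyp11b1-high cells, against 461 and 544 CPM in Cyp11b2-high cells. The classes did not overlap, and both libraries moved by a similar amount, −0.46 and −0.56 on the log2 scale. The estimate was −0.51 ± 0.05 (SE; edgeR adjusted p = 2.24e-07), a fold of 0.704. Prkar1b, the RIβ gene, had 29.4 and 27.3 CPM in Cyp11b1-high cells and 32.6 and 40.7 CPM in Cyp11b2-high cells. Its groups did not overlap either, but the difference of −0.32 ± 0.13 did not pass the edgeR test (adjusted p = 0.0608).

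Prkar2b, the RIIβ gene, went the other way from Prkar2a. Its level was 187 and 234 CPM in Cyp11b1-high cells, against 163 and 185 CPM in Cyp11b2-high cells. The classes did not overlap, by a narrow margin, and the Cyp11b1-high value was higher within each library. The log2 difference was 0.27 ± 0.08 (edgeR adjusted p = 0.0121). DESeq2 gave 0.28 with an adjusted p of 0.129, so this call rests on the test used. Prkar2b separated Cyp11b1-high cells more widely from the classes between. Its levels were 150 and 151 CPM in Cyp11b1-intermediate cells and 145 and 154 CPM in cells low in both. Against those classes Cyp11b1-high cells were higher by 0.45 ± 0.08 and 0.48 ± 0.07 on the log2 scale (edgeR adjusted p = 0.00122 and 2.7e-05), in comparisons that called 7.4% and 26.6% of all genes.

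The catalytic genes differed in opposite directions. Prkaca, the Cα gene, had 83.3 and 84.1 CPM in Cyp11b1-high cells, against 70.8 and 60.1 CPM in Cyp11b2-high cells, with no overlap. Its log2 difference was 0.34 ± 0.12 (edgeR adjusted p = 0.03), and DESeq2 gave 0.37 with an adjusted p of 0.203. Prkacb, the Cβ gene, had 100 and 89.0 CPM in Cyp11b1-high cells and 120 and 103 CPM in Cyp11b2-high cells, so the classes did not overlap. Its log2 difference was −0.25 ± 0.07 (edgeR adjusted p = 0.0138). The Prkacb call ended under 4 of 12 alternatives, among them cells thinned to 5000 UMIs (edgeR adjusted p = 0.115) and class thresholds halved (0.0915).

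Gnas was present throughout. At 5000 UMIs per cell, at least 99.3% of the cells of each class kept a Gnas UMI, and the middle 50% of cortical cells lay between 1381 and 1876 CPM in library 1 and between 1237 and 1764 CPM in library 2. Class sums, TMM-normalised unlike these per-cell values, gave 1631 and 1319 CPM in Cyp11b1-high cells, against 1926 and 1564 CPM in Cyp11b2-high cells. On this scale library 1 was above library 2 in every class, so the classes overlapped across libraries. The TMM factors, 0.953 and 1.09 in Cyp11b1-high and 0.883 and 1.02 in Cyp11b2-high cells, widen this gap between libraries. Each library alone gave −0.24 and −0.25 on the log2 scale. The estimate of −0.24 ± 0.09 missed the edgeR threshold (adjusted p = 0.0528) and passed that of DESeq2 (−0.23, adjusted p = 3.94e-05). No 2 neighbouring classes in the order of Gnas means differed by edgeR, while DESeq2 called the lowest pair, Aldh1a1-high over Cyp11b1-high cells (log2 difference −0.18, adjusted p = 0.0423). Between its ends, Gnas was lower in Aldh1a1-high cells (1376 and 1108 CPM) than in Cyp11b2-high cells, by −0.49 ± 0.10 on the log2 scale (edgeR adjusted p = 0.000915).

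In all, 2 of the 7 members were called higher and 3 lower by edgeR in Cyp11b1-high than in Cyp11b2-high cells. Of all genes tested in that comparison 32.9% were called, 15.1% as higher and 17.8% as lower. Without the library term in the model, Prkar2a kept its call in this comparison and the other 4 calls ended. Other features moved with the same classes. Nr4a1-high cells, defined below, made up 17.5% and 14.2% of Cyp11b1-high cells, against 30.7% and 54.2% of Cyp11b2-high cells, and the median mitochondrial share was 5.32% and 4.84% in Cyp11b1-high cells, against 7.26% and 7.23% in Cyp11b2-high cells. In Nr4a1-low cells alone, an alternative added after the data were seen, Prkar2a differed by −1.31 and Prkar1a by −0.47, both called, while Prkar2b (0.22) and Prkacb (−0.18) were not called.

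Transcripts of 2 other cell types also differed between these classes. All 3 erythroid genes were present in Cyp11b1-high cells, at 1162 and 824 CPM in sum, with 99.8% and 100% of the UMIs in 5 cells or fewer. In Cyp11b2-high cells their sum was 20.1 CPM in library 1, and all 3 were at 0 in library 2. Of 6 endothelial genes, 4 (not Cdh5 or Emcn) and 6 were present in Cyp11b1-high cells, at 16.5 and 13.6 CPM in sum, against 3 (not Pecam1, Cdh5 or Emcn) at 2.37 and 2.16 CPM in Cyp11b2-high cells. Leaving out every cell with 3 or more UMIs of erythroid, endothelial, chromaffin, stromal and glial markers, also added afterwards, gave −1.25 for Prkar2a, −0.51 for Prkar1a, 0.25 for Prkar2b, 0.34 for Prkaca and −0.26 for Prkacb, with each of these 5 calls kept.

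**Figure D2:**
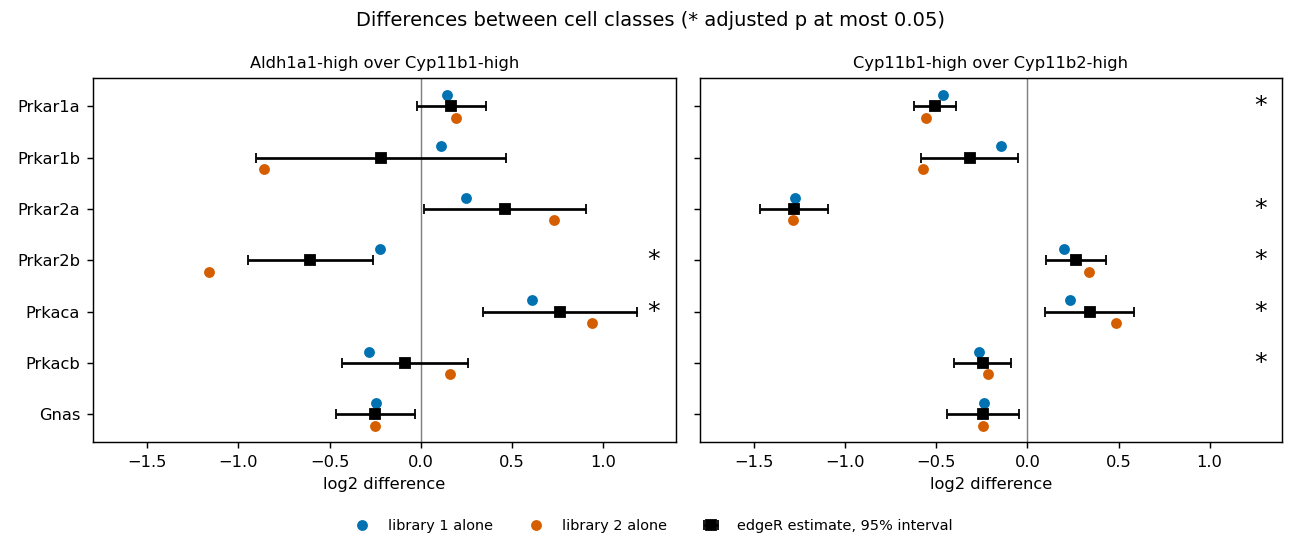
Log2 differences of the 7 genes for Aldh1a1-high over Cyp11b1-high cells (left) and Cyp11b1-high over Cyp11b2-high cells (right); squares are edgeR estimates with 95% intervals, circles are the difference within 1 library, and stars mark adjusted p of at most 0.05. Prkar2a on the right stands at −1.28 with library values of −1.27 and −1.29, and Prkar2b on the left has library values of −0.22 and −1.16.

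Set against one another, the regulatory transcripts were shared out differently in the classes. Prkar2a made up 7.88% (95% exact binomial interval 7.09 to 8.72) and 6% (5.18 to 6.90) of regulatory subunit UMIs in Cyp11b1-high cells, against 14.8% (13.98 to 15.7) and 11.4% (10.4 to 12.4) in Cyp11b2-high cells. Prkar2b made up 31.3% and 34.9% in Cyp11b1-high cells, against 21.1% and 21.4% in Cyp11b2-high cells. The Prkar1a share was 55.9% and 55.1% in Cyp11b1-high cells and 59.8% and 62.6% in Cyp11b2-high cells. Within the RII pair the balance therefore lay further towards Prkar2b in Cyp11b1-high cells of both libraries. Of the catalytic UMIs, Prkaca held 60.7% and 61.9% in Aldh1a1-high cells, 45.4% and 48.6% in Cyp11b1-high cells, and 37.1% and 36.8% in Cyp11b2-high cells. Regulatory over catalytic UMIs came to 2.96 and 2.33 in Aldh1a1-high cells, 3.26 and 3.88 in Cyp11b1-high cells, and 4.04 and 5.31 in Cyp11b2-high cells. These intervals cover counting error only, and UMI shares are shares of captured transcripts, not of protein.

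**Figure D3:**
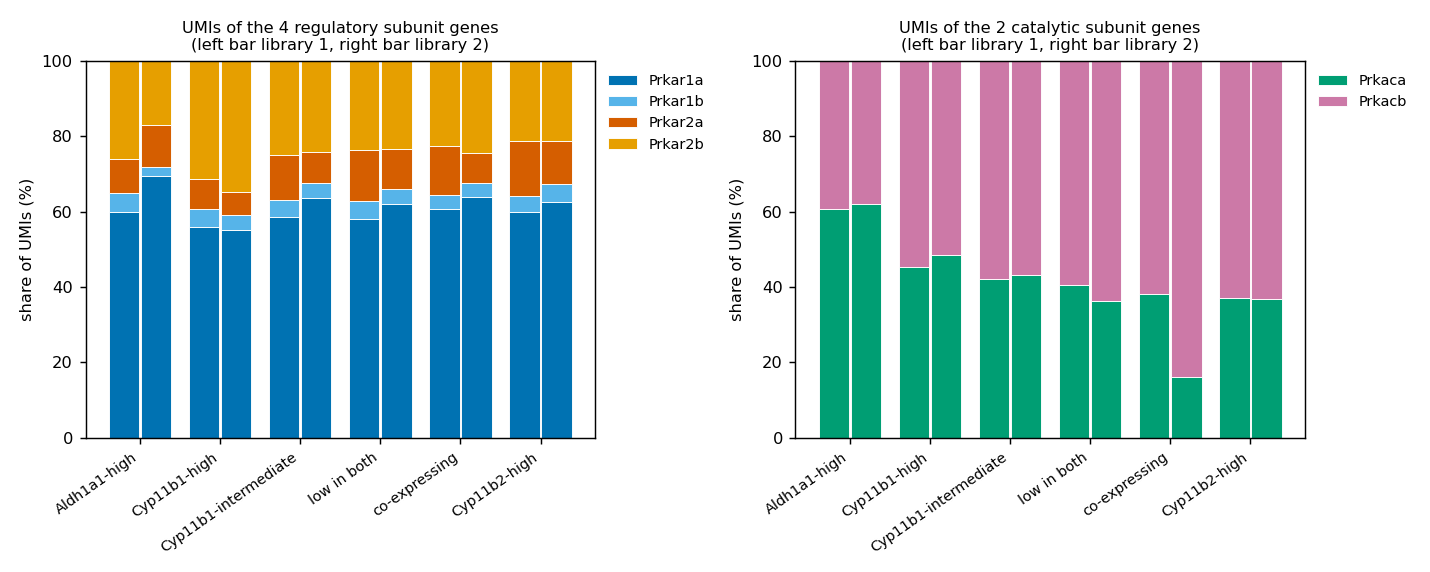
Share (%) of the UMIs of the 4 regulatory genes (left) and the 2 catalytic genes (right) held by each gene, for 6 classes with library 1 as the left and library 2 as the right bar of a pair. Prkar2b takes its largest share in Cyp11b1-high cells (31.3% and 34.9%), and Prkaca passes Prkacb in Aldh1a1-high cells alone (60.7% and 61.9%).

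The classes between showed part of the same pattern. Their comparisons and the previous one share the Cyp11b2-high sums, so they do not repeat each other independently. In Cyp11b1-intermediate cells, 3 members were called lower by edgeR than in Cyp11b2-high cells, where 16.8% of all genes were called and 10% as lower. These were Prkar2a (−0.75 ± 0.09, edgeR adjusted p = 1.68e-06), Prkar1a (−0.42 ± 0.06, 1.11e-05) and Prkar1b (−0.40 ± 0.13, 0.0402). The same 3 were called lower in cells low in both hydroxylase genes, where 13.6% of genes were called and 7.48% as lower. There Prkar2a differed by −0.49 ± 0.07 (edgeR adjusted p = 4.53e-05), Prkar1a by −0.40 ± 0.05 (1.07e-05) and Prkar1b by −0.32 ± 0.10 (0.0462). Gnas in Cyp11b1-intermediate cells was not called by edgeR (−0.19, adjusted p = 0.199) and was called lower by DESeq2 (−0.18, 0.00466), which did not call Prkar1b there. Without the library term each of the 6 edgeR calls of these 2 comparisons ended. Prkar1b rests on few UMIs, and its calls ended under 7 and 6 of 12 alternatives.

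No difference of a member was detected between co-expressing and Cyp11b2-high cells. None of the 7 members was called by edgeR, against 0.0511% of all genes, none reached an unadjusted p under 0.05, and DESeq2 called none. Prkar1a had 454 and 602 CPM in co-expressing cells, against 461 and 544 CPM in Cyp11b2-high cells, so the ranges overlapped. With 35 and 15 cells the precision is low. Prkaca had 5 UMIs in library 2 of this class, which gave log2 differences of 0.07 and −1.77 in the libraries. Compared directly, Prkar2a was lower in Cyp11b1-high than in co-expressing cells by −1.004 ± 0.173 on the log2 scale (edgeR adjusted p = 0.000635), where 7.14% of all genes were called.

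Aldh1a1-high cells, with few cells but distinct values, had 127 and 162 CPM of Prkaca, against 83.3 and 84.1 CPM in Cyp11b1-high cells. These are 68 and 65 UMIs in the Aldh1a1-high sums. Every Prkaca value of the Aldh1a1-high class lay above every value of the other 5 classes. The share of all genes with such an order in this small class is not given here. The Prkaca log2 difference from Cyp11b1-high cells was 0.76 ± 0.20 (edgeR adjusted p = 0.0127), a fold of 1.7. Prkar2b was lower, at 161 and 105 CPM in Aldh1a1-high cells against 187 and 234 CPM in Cyp11b1-high cells. Its estimate of −0.61 ± 0.16 (edgeR adjusted p = 0.0145) is uneven between libraries, at −0.22 and −1.16, and was not called in thinned cells. Prkar2a had 56.1 and 67.2 CPM in Aldh1a1-high cells against 47.1 and 40.3 CPM in Cyp11b1-high cells and was not called (adjusted p = 0.166). In this comparison 1 member was called higher and 1 lower by edgeR, where 14.5% of all genes were called, 7.56% as higher and 6.93% as lower. DESeq2 called these 2 members and Gnas, and without the library term edgeR called neither. Leukocyte and chromaffin markers were at 0 in the Aldh1a1-high sums of both libraries, and the erythroid sum was 1.82 and 0 CPM. Cells with more leukocyte UMIs had been left out when cortical cells were selected, so the leukocyte value follows in part from that selection. The endothelial, stromal and glial sums of Aldh1a1-high cells are not given here, so these values do not show that the class is free of other cell types. Set directly against Cyp11b2-high cells, where 28% of genes were called, Aldh1a1-high cells had higher Prkaca (1.11 ± 0.21, edgeR adjusted p = 0.000321) and lower Prkar2a (−0.82 ± 0.19), Prkar1a (−0.34 ± 0.09) and Gnas (−0.49).

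Nr4a1, an orphan nuclear receptor gene that ACTH and cyclic AMP induce quickly in adrenal cells, gave a second grouping. Nr4a1-high cells were the top 25% by Nr4a1 CPM within a library, at or above 63.4 CPM in library 1 and 165 CPM in library 2. At median depths of 18630 and 16170 UMIs these thresholds stand for few UMIs. Of the cortical cells, 60.4% and 48% had no Nr4a1 UMI. The state of a cell thus depends on its depth and on counting error, which limits what differences could be detected. Nr4a1-high cells were compared with Nr4a1-low cells of the same class and library in 4 classes, giving 8 pairs. Aldh1a1-high and co-expressing cells had too few cells in one state. No member was called by edgeR or by DESeq2, against 3.52% of all genes by edgeR. Prkar1a was the 1 member with an unadjusted edgeR p under 0.05. In Cyp11b1-high cells it had 352 and 388 CPM in Nr4a1-high cells, against 329 and 371 CPM in Nr4a1-low cells. In Cyp11b1-intermediate cells it had 385 and 511 CPM in the Nr4a1-high state, against 337 and 379 CPM in the Nr4a1-low state. Among cells low in both hydroxylase genes, Nr4a1-high cells had 363 and 426 CPM and Nr4a1-low cells 339 and 405 CPM. Only in Cyp11b2-high cells did the libraries part, with 504 and 539 CPM in Nr4a1-high cells and 423 and 545 CPM in Nr4a1-low cells. Prkar1a was thus higher in Nr4a1-high cells in 7 of 8 pairs, a count whose share over all genes is not given here. The 8 pairs come from 2 libraries, so they are not 8 independent replicates. The Prkar1a log2 difference was 0.14 ± 0.04 (edgeR adjusted p = 0.0689). It passed the edgeR threshold with class thresholds halved (adjusted p = 0.0406), with Nr4a1-high set at 200 CPM or more (0.0433) and without cells holding markers of other cell types (0.0483). It was not called in the main fit, by DESeq2 or within any single class. The lowest edgeR adjusted p within a class was 0.504, in Cyp11b1-intermediate cells.

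Gnas gave −0.01 ± 0.04 between Nr4a1-high and Nr4a1-low cells, with a 95% interval of −0.09 to 0.07 on the log2 scale. Its values in Cyp11b2-high cells were 1814 and 1594 CPM in Nr4a1-high cells and 1906 and 1518 CPM in Nr4a1-low cells, so the libraries moved in opposite directions. The other 5 members had estimates between −0.02 for Prkar2a and 0.07 for Prkar2b. Whether the Nr4a1 difference is larger in Cyp11b1-high than in Cyp11b2-high cells was tested as an interaction. No gene was called by edgeR (0% of 10401), 387 genes had an unadjusted p under 0.05, and no member was among them. That test was not run with DESeq2.

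**Figure D4:**
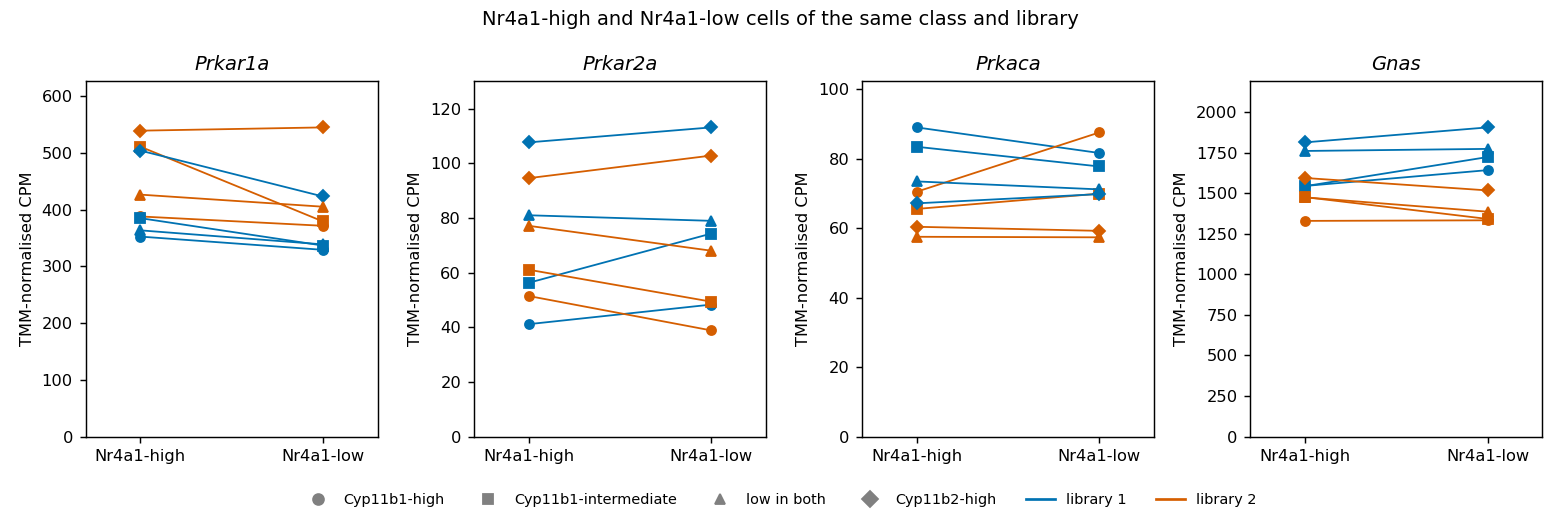
TMM-normalised CPM of 4 members in Nr4a1-high and Nr4a1-low cells; each line joins the 2 states of 1 class (marker shape) in 1 library (colour). Prkar1a slopes down to Nr4a1-low in 7 of 8 pairs, which come from 2 libraries. Gnas lines run both ways around a log2 difference of −0.01.

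The rest of the cyclic AMP pathway was read from 88 genes in 8 lists, of which 64 were tested between classes. In Cyp11b1-high over Cyp11b2-high cells 8 were called higher and 24 lower, with a median log2 difference of −0.19 against −0.01 over all genes tested. Of all genes tested, 15.1% were called higher and 17.8% lower, which is the background for each list below too. Among anchoring proteins, 1 of 13 tested was higher and 5 lower, including Sphkap (−0.92 ± 0.10), which binds RI subunits, and Akap1 (−0.48 ± 0.10), which tethers PKA to mitochondria. Of 3 tested inhibitors and paralogs of PKA 1 was higher and 2 were lower, among them Pkig, which encodes a PKA inhibitor (−0.31 ± 0.07). The higher one, the inhibitor gene Pkia, is named after its values were seen and was rare, at 1.65 and 1.32 CPM in Cyp11b1-high cells, against 0.112 and 0 CPM in Cyp11b2-high cells. Phosphodiesterases, which break down cyclic nucleotides, had 2 of 10 higher and 5 lower, with Pde10a at −2.28 ± 0.19, Pde2a at −1.25 ± 0.12 and Pde8b at 0.63 ± 0.13. Of 5 genes of the adenylyl cyclase list 1 was higher and 2 were lower. The cyclase gene Adcy6 was lower (−1.37 ± 0.17), as was Cap1, a cyclase-associated protein gene (−0.24 ± 0.09), and Adcy7, named after its values were seen, was higher, at 2.20 and 3.30 CPM in Cyp11b1-high cells, against 0.784 and 1.17 CPM in Cyp11b2-high cells. Among G protein genes, with 1 of 18 higher and 5 lower, Gnb4 (−0.95 ± 0.13) and Gnai3, an inhibitory alpha subunit (−0.64 ± 0.06), were lower. The ACTH receptor gene Mc2r was higher by 0.28 ± 0.09 (adjusted p = 0.0205). Of 11 CREB family genes and coactivators 1 was higher, Crtc3 (0.54 ± 0.08), and 5 were lower, including Crem (−1.71 ± 0.14) and Sik3 (−0.61 ± 0.10). The edgeR test with Benjamini-Hochberg adjustment over all genes was used for each of these calls. Pde10a and Crem were also called higher in Nr4a1-high cells, as given below. Such cells made up a smaller share of Cyp11b1-high than of Cyp11b2-high cells. Values of pathway genes in Nr4a1-low cells alone are not given here.

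Aldh1a1-high cells differed from Cyp11b1-high cells in 15 of the 64 pathway genes, 8 higher and 7 lower. Of all genes tested there, 14.5% were called, 7.56% as higher and 6.93% as lower. Mc2r was lower (−2.15 ± 0.22, with −1.61 and −4.21 in the libraries), and Mrap, which carries the ACTH receptor to the cell surface, was higher (1.27 ± 0.13). Sphkap was lower still, at 39.3 and 0 CPM in Aldh1a1-high cells, against 109 and 99.3 CPM in Cyp11b1-high cells, and Rapgef4, a cyclic AMP-regulated exchange factor outside PKA, was lower too (−1.02 ± 0.15). Of the other anchoring protein genes Akap13 was higher (0.94 ± 0.16) and Akap8l lower (−0.82 ± 0.21). G protein genes had 3 of 18 higher and 2 lower, with Gnb4 (1.70 ± 0.23) and Gnai1 (2.19 ± 0.46) higher and Gnb1 (−0.45 ± 0.12) and Gnai3 (−0.42 ± 0.13) lower. Phosphodiesterases had 2 of 10 higher and 1 lower. Pde1b was higher (4.91 ± 0.61), and Pde2a was lower, at 13.1 and 0 CPM in Aldh1a1-high cells, against 33.7 and 27.7 CPM in Cyp11b1-high cells. In Cyp11b1-intermediate over Cyp11b2-high cells 3 of the 64 were higher and 13 lower, in cells low in both 2 and 11, and in co-expressing cells none (by edgeR). The shares of all genes called in these comparisons were 16.8%, 13.6% and 0.0511%. With Nr4a1 state, where 3.52% of all genes were called, 4 of 56 tested pathway genes were called, all higher. They were Sik1 (3.87), Pde10a (1.60), Crem (0.96) and Sik2 (0.50), of which Sik1 and Sik2 are named after their values were seen.

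Genes with the pattern most like each member were sought by Pearson's r of log2 normalised CPM over the 12 class sums, centred within each library, among 6559 genes. The 12 sums come from 2 libraries and share their cells' depth and dissociation, so r is a description. Each sum counts equally, whether it holds 15 cells or 2929, and the values given are the highest among these genes. Prkar2a was most like Tmem178 (0.98), Por, the electron donor of microsomal P450 enzymes (0.97), and Tapt1 (0.96). Prkar1a was most like Fdx1, the ferredoxin of mitochondrial P450 enzymes (0.97), and Gnas most like Ywhaq, Agtr1b, an angiotensin II receptor gene, and Rtl8b (0.99, 0.99 and 0.98). Prkaca was most like Agpat2 (0.99), Prkacb Shoc2 (0.95), Prkar1b Acvr1c (0.95) and Prkar2b Macf1 (0.93). Among the members themselves, Prkar1a and Prkar2a had r = 0.80, and Prkar2a and Prkar2b had r = −0.16.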

How the data were processed

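Single-cell RNA was measured in 2 libraries of 1 group, prepared with the 10x Chromium 3′ version 3.1 kit per the labels' protocols. The deposited files hold UMI counts per gene and cell, which the authors produced on the mm10 build using Cell Ranger, per the submitters' processing notes. The file headers name software version 3.1.0. Counting of 3′ ends does not separate transcripts that share an end, and capture differs between genes.

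Barcodes with at least 1000 UMIs, 500 genes and at most 30% mitochondrial UMIs were kept, which left out 148 and 276. Doublets called by Scrublet (scanpy 1.11.5) at an expected 0.8% per 1000 barcodes, 203 and 42, were removed. Of the remainder, 105 and 92 were not cortical (under 2000 CPM of the 4 cortical genes or 3 or more leukocyte UMIs), and 226 and 285 had under 5000 UMIs. Classes came from CPM thresholds of Aldh1a1, Cyp11b2 and Cyp11b1, and Nr4a1 states from the top 25% within a library.

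Counts were summed per class and library, or per class, library and Nr4a1 state, over at least 10 cells. They were tested with the quasi-likelihood test of edgeR 4.0.16 (TMM, filterByExpr, Benjamini-Hochberg over all genes tested, threshold 0.05). The model had the library as a term for classes, giving 12 sums and 5 residual degrees of freedom, or class and library pairs as blocks for Nr4a1 states, giving 16 sums and 7. The pairing comes from the cells' shared library. DESeq2 1.42.0 was an alternative. The class fit was tested on simulated data with known changes, but the outcome is not reported here and nothing is drawn from it. Differences within 1 library used log2 CPM with a prior count of 2. Named pathway genes were, per list and direction, the 2 largest called differences of the same sign in both libraries at 20 CPM or more; all 7 members are reported. The members and lists were chosen with earlier results of these data known.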

Additional observations from a re-analysis of the deposited data

How the results depend on the processing

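The counts of genes called moved by more than 1.5 times under some alternatives. With no library term, that is without the replicate block, they were 748 (Cyp11b1-high over Cyp11b2-high, from 3871), 121 (Cyp11b1-intermediate, from 1975), 8 (low in both, from 1597), 1 (co-expressing, from 6), 569 (Aldh1a1-high over Cyp11b1-high, from 1702) and 47 (Nr4a1 state, from 366). In cells thinned to 5000 UMIs they were 2077, 986, 845, 704 and 215 for the same comparisons without the co-expressing one. DESeq2 called 784 for cells low in both. The co-expressing count was 3 with RLE size factors, 71 with no filter on low counts, 20 with class thresholds halved and 10 with doublets kept. Doubled thresholds gave 239 for Nr4a1 state. The interaction with Nr4a1 state gave 12 with no filter on low counts, against 0. No member's called difference in the refitted comparisons changed direction under any alternative run. Prkar2a in Cyp11b1-high over Cyp11b2-high cells kept its call under all 12 alternatives that have a test, between −1.55 and −1.06 on the log2 scale. The other 12 member calls in the 4 comparisons with a call that were refitted (Cyp11b1-high, Cyp11b1-intermediate and low in both over Cyp11b2-high, and Aldh1a1-high over Cyp11b1-high) ended at least with no library term. Other class pairs were not refitted. The cause of these changes was not tested. Leaving out 1 library leaves no residual degrees of freedom, so those values have no test. Doubled class thresholds left 4 and 3 co-expressing cells, which gave no value. The split at the middle of the Nr4a1 ranking was not run, because 60.4% of library 1 cells had no Nr4a1 UMI. Aldh1a1-high and co-expressing sums hold few cells, which limits what differences could be detected there.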
